A study of Mus musculus with 27 samples.

Results

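The 78 members described here are the nuclear genes whose symbols begin with Mrpl or Mrps followed by a number, which name the proteins of the mitochondrial ribosome. They were taken by symbol alone from the 35275 genes of the series, with no use of their measured values and without the pseudogenes. RNA levels of these genes were read as FPKM (fragments scaled for exon length and for the number of mapped fragments) in 27 libraries, 3 from each of 9 groups. Mouse CD8 T cells carrying the P14 T cell receptor, which recognises a viral peptide, were taken from lymph nodes of wild type (WT, labelled WT P14+), lin28Tg (labelled Lin28bTg P14+) and let-7Tg (labelled Let-7Tg P14+) animals. The study's methods for T cell culture name spleens as well as lymph nodes as the source. Lin28 blocks the maturation of let-7 microRNAs, whereas let-7Tg cells carry an extra let-7g gene that doxycycline turns on. Naive cells (0 h) received no treatment in vitro, although the study's methods give doxycycline in the drinking water of experimental and control mice. Activated cells were stimulated for 12 h with anti-CD3 (2 µg/ml) and anti-CD28 (5 µg/ml) antibodies in the presence of doxycycline (2 µg/ml). Cytotoxic T lymphocytes (CTLs) were collected on day 5 after stimulation with irradiated splenocytes and anti-CD3 (2 µg/ml), with IL-2 (100 U/ml) added part way and doxycycline (2 µg/ml) in the medium. Per the methods the transgenic P14+ animals were Rag2-/-, and a cross described there lists P14+ WT mice on that background too. Animals were of both sexes and young adult. The promoter that drives the Lin28b transgene is not given in the sources used here. The P14 receptor and the treatment of a stage, doxycycline included, were shared by its 3 genotypes.

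Mitochondria keep their own ribosome, with a large and a small subunit built on RNAs made from mitochondrial DNA, while every one of its proteins is encoded in the nucleus, made in the cytosol and imported. The only messages it translates are the few mitochondrially encoded subunits of the respiratory chain and ATP synthase, so that assembly of those complexes needs both genomes. Some of its proteins have counterparts in bacterial ribosomes and others exist only in mitochondria. Naive T cells are small and quiet, and on activation they grow and enlarge their mitochondria before they divide.

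The microRNA made from the let-7Tg transgene, of the family whose maturation Lin28 blocks, is let-7g-5p, shown with its seed (bases 2 to 8, the part that pairs with targets) in capitals, from the RefSeq annotation on GRCm38.p6 (chr9:106178846-106178867, plus strand).
let-7g-5p: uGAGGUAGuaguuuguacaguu
The DNA match to this seed, CTACCTC, was searched in the 3′ untranslated region of the longest coding transcript of each gene in GENCODE M21 (GRCm38). It was found in 5 of the 77 members with such a region (6.49%), against 9.29% of 12534 tested coding genes, and the median length of the region was 327 bases in members and 930 bases in tested coding genes. Mrpl33 was not placed in that annotation by its gene identifier and was not searched. The 5 sites are shown, with the match in capitals, as the full seed matches found in members; coding sequence and shorter matches were not searched.
Mrpl15 (match at chr1:4775354-4775360, minus strand): aagcagagtggCTACCTCacat
Mrpl17 (match at chr7:105809314-105809320, minus strand): ggtatggggcaCTACCTCctgg
Mrpl21 (match at chr19:3292589-3292595, plus strand): ctcctctgtctCTACCTCgcat
Mrpl51 (match at chr6:125195302-125195308, plus strand): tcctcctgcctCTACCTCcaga
Mrps25 (match at chr6:92170518-92170524, minus strand): tgatgccatgaCTACCTCagaa
A seed match is a run of letters and not a measured site of binding.

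Promoters, from 250 bases before to 50 bases after the annotated start, were at hand in RefSeq on GRCm38.p6 for 69 members (75 promoters). They were searched on both strands for 4 short motifs. CCGGAAG, a core recognised by ETS family factors such as GABP, was present in 34.7% of member promoters, in 16.8% of the promoters of tested genes and in 8.86% of all promoters. GCGCATGC, a core of the NRF1 site, was present in 10.7%, 4.91% and 2.71% of them, and AAGATGGCG, a core of the YY1 site, in 10.7%, 2.81% and 1.4%. CACGTG, the E-box recognised by Myc and other factors, was present in 9.33% of member promoters, 9.71% of promoters of tested genes and 7.15% of all promoters. In all, 40 of the 75 member promoters held at least 1 of the 4 motifs (53.3%, against 29.9% for tested genes). The member promoters below show 3 members that rose on activation, which hold ETS, NRF1 or YY1 letters, and Mrpl58, the member that fell and that holds the ETS letters at 2 positions. Capitals mark the motifs, which read in reverse complement as CTTCCGG for ETS and GCATGCGC for NRF1.
Mrpl17 (chr7:105811038-105811337, minus strand): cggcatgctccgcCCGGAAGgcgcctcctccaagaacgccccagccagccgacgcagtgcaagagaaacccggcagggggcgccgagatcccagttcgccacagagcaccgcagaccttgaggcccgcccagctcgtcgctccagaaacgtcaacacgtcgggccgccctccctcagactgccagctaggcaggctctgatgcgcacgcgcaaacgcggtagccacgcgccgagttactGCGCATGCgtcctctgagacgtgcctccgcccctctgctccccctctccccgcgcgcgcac
Mrps18b (chr17:35916391-35916690, minus strand): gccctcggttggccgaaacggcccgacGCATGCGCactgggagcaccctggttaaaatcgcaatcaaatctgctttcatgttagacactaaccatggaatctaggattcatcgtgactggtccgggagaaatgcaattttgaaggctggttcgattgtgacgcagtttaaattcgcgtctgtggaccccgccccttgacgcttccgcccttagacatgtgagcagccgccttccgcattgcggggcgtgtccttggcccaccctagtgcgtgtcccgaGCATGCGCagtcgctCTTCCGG
Mrpl42 (chr10:95501900-95502199, minus strand): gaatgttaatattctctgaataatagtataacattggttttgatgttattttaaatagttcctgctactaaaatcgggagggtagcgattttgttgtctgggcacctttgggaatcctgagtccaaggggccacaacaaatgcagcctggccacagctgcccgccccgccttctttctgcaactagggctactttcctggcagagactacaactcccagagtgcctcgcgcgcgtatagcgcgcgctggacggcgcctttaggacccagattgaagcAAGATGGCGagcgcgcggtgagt
Mrpl58 (chr11:115403502-115403801, plus strand): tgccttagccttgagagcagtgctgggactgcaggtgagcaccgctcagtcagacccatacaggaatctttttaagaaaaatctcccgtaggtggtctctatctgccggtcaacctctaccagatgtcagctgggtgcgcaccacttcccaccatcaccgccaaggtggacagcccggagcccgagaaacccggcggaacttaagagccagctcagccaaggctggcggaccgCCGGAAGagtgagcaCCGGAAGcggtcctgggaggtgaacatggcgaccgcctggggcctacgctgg
The median change of members at 12 h in WT cells, described further on, was 1.23 on the log2 scale for the 25 members with the ETS letters and 1.4 for the 43 without them.

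By gene identifier 77 of the 78 members were placed in the GENCODE M21 annotation (GRCm38), Mrpl53 included, and Mrpl33 was not. The placed members lay on 17 chromosomes, with at most 11 on any of them and none on X or on mitochondrial DNA. Of the placed members, 18 of 77 (23.4%) had an opposite-strand protein-coding gene starting within 1000 bases upstream of their own start. The share was 10.2% of tested protein-coding genes. Opposite-strand starts that lie downstream, as in overlapping genes, were not counted. For example, the start of Mrps18b lay 45 bases from that of Ppp1r10, and the start of Mrpl49 lay 59 bases from that of Fau. Exon bases of 32 of the placed members are shared with another gene, in large part for Mrpl53 (88.0% with Gm42688), Mrps25 (69.8% with Nr2c2), Mrps34 (63.4% with Mapk8ip3), Mrpl19 (36.0% with Gcfc2), Mrpl43 (33.4% with Twnk), Mrps18b (30.5% with the antisense gene Gm16279) and Mrpl24 (26.3% with Rrnad1). Whether reads were counted by strand is not given in the sources used here, so that the values of all 32 are uncertain. Counting by strand would not separate genes of the same strand. Such overlaps include Mrpl53 with Gm42688, Mrps34 with Nme3 (37.0%), Mrps18c with Gm43511 (23.2%) and Mrps24 with Urgcp (15.4%). Mrpl53 had 0 reads in all 27 libraries, passed no filter and is given no fold change. The other 77 members were tested in every comparison.

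The label checks held for Lin28b and Col1a1. Lin28b was listed at 56.4 to 67.9 FPKM in lin28Tg naive cells, 9.94 to 12.6 at 12 h and 14 to 22.4 in lin28Tg CTLs, and at no more than 0.06 in any WT or let-7Tg library. Col1a1, the locus that carries the let-7g transgene, stood at 9.06 to 62.8 FPKM in let-7Tg libraries, at 0.07 to 1.43 in WT and at up to 4.93 in lin28Tg libraries; mature let-7 itself was not measured here. Depth ran from 13862692 to 23590929 reads per library. The naive lin28Tg libraries stood apart in markers of other cells. Their summed myeloid marker level was 211 to 830 FPKM (WT 43.2 to 76.0, let-7Tg 34.4 to 74.1), their summed erythroid level 494 to 1994 (153 to 292 and 1.92 to 38.7), and their proliferation markers summed to 591 to 719 (255 to 259 and 201 to 221). T cell markers summed to 5647 to 6229 FPKM in them, 6630 to 7541 in WT and 6740 to 7556 in let-7Tg naive cells, with none of the 11 at 0.

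Members were expressed over a range of more than an order of magnitude in each group, and libraries of a group lay close together. In WT naive cells mean levels ran from 3.93 FPKM (Mrpl47) to 88.2 FPKM (Mrpl24) with a median of 23.2, in WT cells at 12 h from 10.9 (Mrpl35) to 153 (Mrpl30) with a median of 48.9, and in WT CTLs from 7.10 (Mrpl35) to 131 (Mrpl30) with a median of 32.7. The median coefficient of variation over 3 libraries was 4.96% to 10.0% across the 9 groups. Over all 27 libraries the highest means were those of Mrpl30, Mrps21, Mrpl52, Mrpl20 and Mrpl42, and the lowest, apart from Mrpl53 at 0, those of Mrpl35, Mrpl1, Mrpl47 and Mrps25. FPKM is a level per length, which allows for the different lengths of genes. The order of levels is still uncertain for members that share exon bases with another gene. Among those named here these include Mrps25 (69.8% with Nr2c2), Mrpl24 (26.3% with Rrnad1) and Mrpl47 (13.9% with Ndufb5 and 10.2% with Actl6a).

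Together the members took 0.338% ± 0.0042 (SD, n = 3) of all summed FPKM in WT naive cells, 0.632% ± 0.025 at 12 h and 0.425% ± 0.020 in CTLs. The corresponding shares were 0.375% ± 0.012, 0.637% ± 0.013 and 0.446% ± 0.0088 in lin28Tg cells, and 0.340% ± 0.015, 0.607% ± 0.019 and 0.415% ± 0.032 in let-7Tg cells. The sum over Mrpl symbols divided by the sum over Mrps symbols stayed between 1.78 and 1.89 in all 9 groups, so that both sets of symbols moved together. These are shares of RNA and not amounts per cell, and in bulk RNA a change in the cells present cannot be told apart from a change in RNA per cell.

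**Figure D1:**
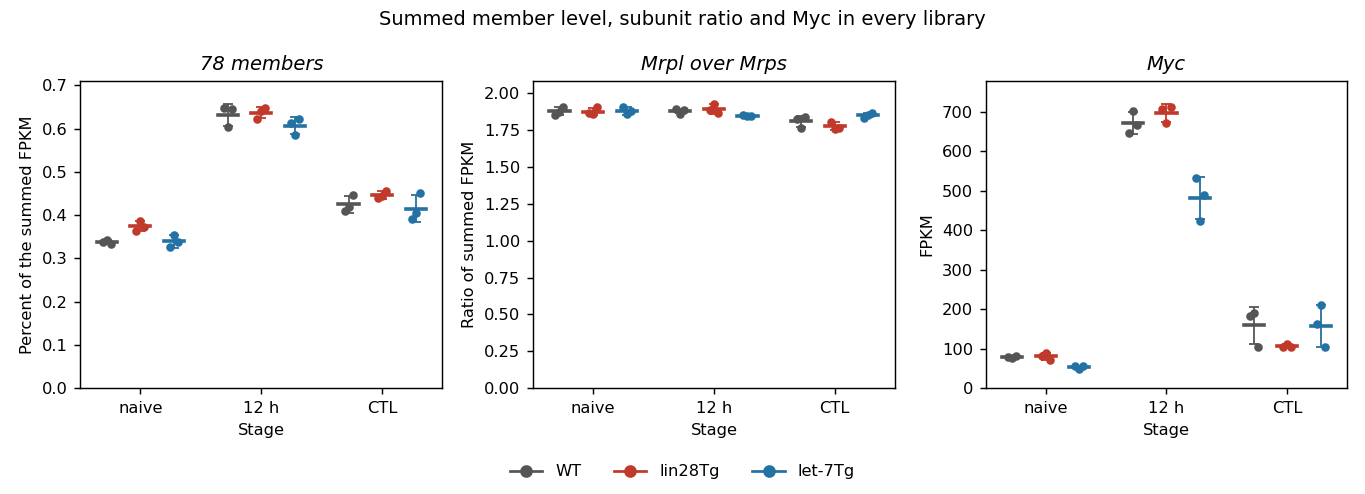
Members' share of summed FPKM in percent (left), the ratio of summed Mrpl to summed Mrps FPKM (middle) and the FPKM of Myc (right) in each of the 27 libraries (points) by stage and genotype, with the mean and SD of 3 libraries and y axes from 0. The WT mean share goes from 0.338% in naive cells to 0.632% at 12 h and 0.425% in CTLs, the 12 h libraries of each genotype lie above the others, and the ratio is level.

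The question of the first comparison was how these genes move when naive CD8 T cells are activated. In WT cells 74 of the 77 tested members rose within 12 h and 1 fell, with a median log2 change of 1.33 (2.51-fold), by limma on log2(scaled FPKM + 0.5) with Benjamini-Hochberg adjustment over all 14453 genes tested at an adjusted p of 0.05. Over all genes tested 35.7% rose and the median log2 change was -0.03. The rise ran through both subunits. Of large-subunit proteins with a bacterial counterpart 28 of 30 rose (median 1.4), of mitochondria-specific large-subunit proteins 19 of 20 (median 1.31, 1 fell), of small-subunit proteins with a bacterial counterpart 15 of 15 (median 1.17) and of mitochondria-specific small-subunit proteins 11 of 11 (median 1.43). Mrps36, a symbol that now names a component of the α-ketoglutarate dehydrogenase complex rather than of the ribosome, rose by 1.66. By position in the large subunit, 3 of 3 members of the L7/L12 stalk, where translation factors dock, rose, as did 7 of 7 of the central protuberance and 6 of 7 around the tunnel through which the new peptide leaves. Marker sums moved with stage as well. In WT libraries T cell markers summed to 6630 to 7541 FPKM in naive cells and 3171 to 3327 at 12 h, myeloid markers to 43.2 to 76.0 and 7.83 to 12.8, erythroid markers to 153 to 292 and 26.1 to 103, and stromal markers to 63.7 to 64.9 and 5.01 to 10.6. B cell (18.9 to 21.6 and 1.46 to 1.82), NK cell (13.8 to 27.1 and 3.08 to 3.83) and CD4 T cell markers (6.93 to 15.9 and 1.71 to 2.52) were lower at 12 h as well, while proliferation markers were higher (255 to 259 and 780 to 1084). In WT CTLs T cell markers summed to 3508 to 3853 FPKM, proliferation markers to 2140 to 2427, myeloid markers to 3.75 to 5.75, erythroid markers to 0.98 to 1.4, stromal markers to 12.9 to 18.8, B cell markers to 4.06 to 6.05, NK cell markers to 8.35 to 40.7 and CD4 T cell markers to 13.7 to 28.1. The last 2 lists did not move as a whole. From 12 h to CTL in WT cells Klrb1c, of the NK list, rose by 3.13 on the log2 scale, while Ncr1 (-1.78), Klra8 (-1.07) and Klra4 (-0.66) fell. Zbtb7b, of the CD4 list, rose by 3.45, while Cd4 (-0.53) and Foxp3 (-0.20) were not called. The part of these sums in the stage differences was not tested.

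**Figure D2:**
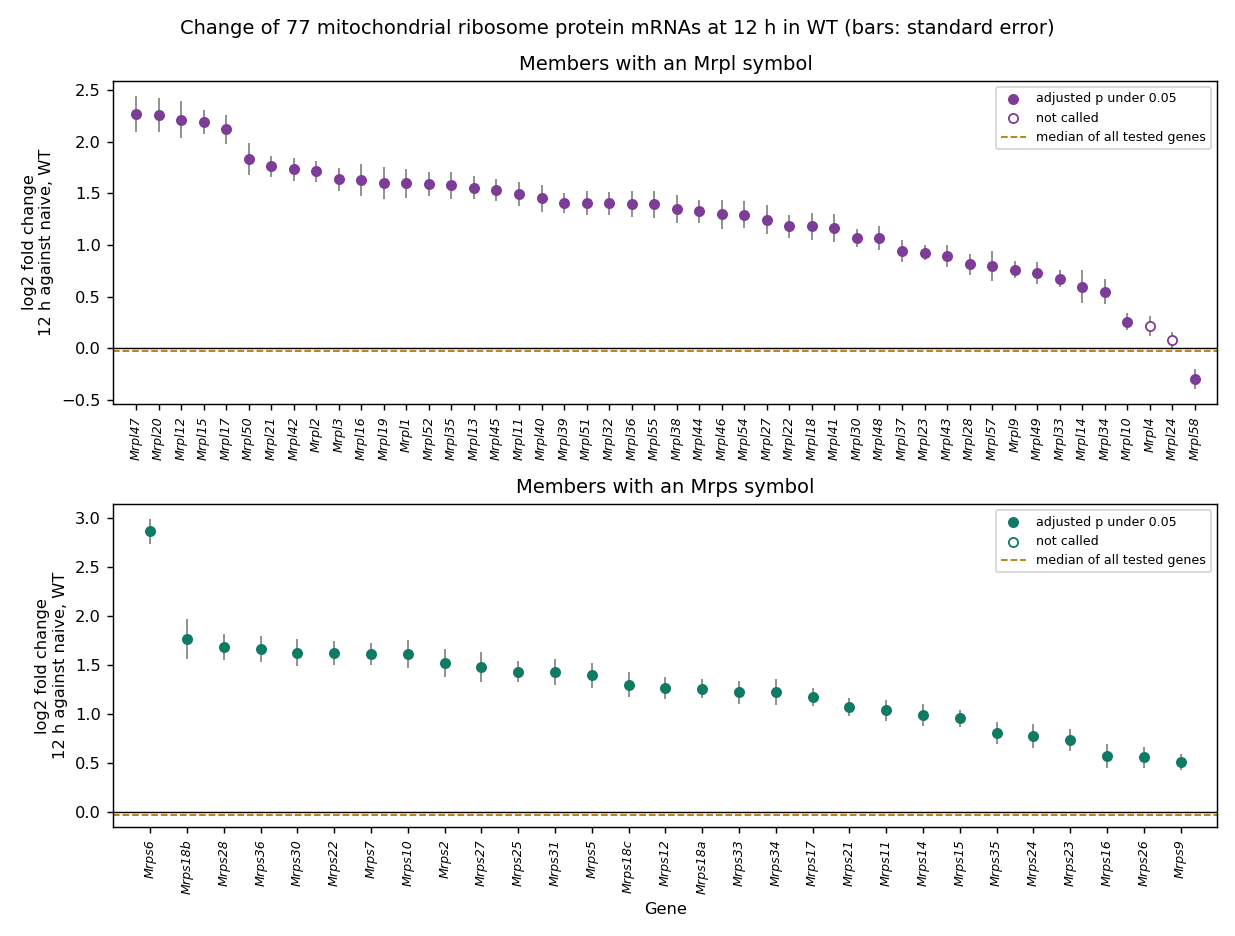
Log2 change of each tested member between naive and 12 h activated WT cells (points, with standard errors; filled where called), in a panel for Mrpl and a panel for Mrps symbols, with a dashed line at the median of all tested genes. Mrps6 stands highest at 2.86, Mrpl58 is below 0 at -0.30, and nearly all others are well above the dashed line.

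Mrps6, the small-subunit protein bS6m, changed most. Its level was 12, 11 and 9.97 FPKM in WT naive libraries, 72.3, 66.5 and 71.1 at 12 h and 13.4, 11.7 and 14.2 in CTLs. All 12 h libraries were therefore far above all others, and the naive and CTL values lay next to each other. The log2 change at 12 h was 2.86 ± 0.13 (SE; limma adjusted p = 1.29e-14) and the change from 12 h to CTL was -2.53 ± 0.13 (adjusted p = 1.19e-13). Mrps6 shares 10.4% of its exon bases with Slc5a3 and 19.9% with Gm49711, and how the authors' counting split those reads was not tested.

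The next largest rises belonged to large-subunit proteins. Mrpl47 (uL29m) stood at 3.72, 4.04 and 4.04 FPKM in naive WT libraries and at 19.6, 15.8 and 17.8 at 12 h, a log2 change of 2.27 ± 0.17. Mrpl20 (bL20m) went from 35.3, 34.7 and 35.1 FPKM to 146, 132 and 152, a log2 change of 2.26 ± 0.17. The groups were far apart for both, with the lowest activated library several times the highest naive library. Mrpl12, the protein that forms the flexible stalk, rose by 2.22 ± 0.18 on the log2 scale from a mean of 15.6 ± 2.4 FPKM (SD, n = 3) to 62.4 ± 4.6. Mrpl15 (uL15m) rose by 2.19 ± 0.11 and Mrpl17 (bL17m) by 2.12 ± 0.14, and naive and 12 h libraries did not overlap in either.

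Few members departed from this rise. Mrpl58, a peptidyl-tRNA hydrolase that became part of the large subunit and can release stalled peptides, had 42.5, 43.2 and 44.7 FPKM in naive WT libraries and 31.2, 28.1 and 29.3 at 12 h. Every activated library was below every naive one, and the log2 change after scaling was -0.30 ± 0.10 (limma adjusted p = 0.00849). With the replicate number as a block the change was -0.27 and the adjusted p 0.0865. Mrpl24 (uL24m), the most abundant member in naive WT cells, had a log2 change of 0.08 ± 0.08 (adjusted p = 0.354), and Mrpl4 (uL4m) one of 0.21 ± 0.10 (adjusted p = 0.0620). Neither was called, and without scaling between libraries their log2 changes were -0.17 and -0.04. Mrpl10, a base of the stalk, passed the test with a log2 change of only 0.26 ± 0.09 (adjusted p = 0.00998), from 33.2 ± 1.7 to 33.4 ± 2.7 FPKM (SD, n = 3) before scaling. The values of the naive and activated groups overlapped for Mrpl10 as deposited, since scaling factors averaged 1.07 in WT naive and 0.895 in WT 12 h libraries.

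From 12 h to day 5 most members came down part of the way. In WT cells 65 of 77 were lower in CTLs than at 12 h and 1 was higher, with a median log2 change of -0.78, while 34.4% of all genes tested were lower. Members that fell made up 24 of 30 and 18 of 20 of the large-subunit classes (bacterial counterpart and mitochondria-specific) and 12 of 15 and 10 of 11 of the corresponding small-subunit classes. After Mrps6 the largest falls were those of Mrps18b, a small-subunit protein (mS40), at -1.93 ± 0.20, and Mrpl38, of the central protuberance, at -1.91 ± 0.14. Mrps18b, of whose exon bases 30.5% are shared with Gm16279, read 49.0, 59.1 and 51.4 FPKM at 12 h and 11.2, 12.8 and 23.9 in CTLs. The third CTL library was above the naive range and the others lay below all naive libraries, which read 17.9, 17.8 and 18.7. Mrps16 (bS16m) was the member that went on rising, by 0.60 ± 0.12 (limma adjusted p = 0.000137).

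Most members remained above their naive level on day 5. In WT cells 58 of 77 were higher in CTLs than in naive cells and 4 lower (median log2 change 0.51), against 32.7% of all genes tested that were higher. The largest rises were those of Mrpl18, Mrpl47 and Mrps16. Mrpl18 (uL18m), which contacts the RNA of the central protuberance, read 41.4, 42.4 and 37.1 FPKM in naive WT libraries and 91.3, 96.2 and 104 in CTLs, a log2 change of 1.35 ± 0.14 (adjusted p = 1.11e-08). Its 12 h libraries, at 82.9, 65.6 and 84.4 FPKM, lay between the others without overlap, and the change from 12 h to CTL was not called (0.17 ± 0.14, limma adjusted p = 0.263). Mrps16 rose at both steps, from 48.2, 57.4 and 47.9 FPKM in naive cells to 69.0, 56.2 and 67.7 at 12 h and 105, 122 and 99.6 in CTLs. Its naive and 12 h values overlapped by a single library, and its CTL values were above all of them.

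The 4 members that were lower in WT CTLs than in naive cells were Mrpl24 (log2 change -0.76 ± 0.08, adjusted p = 1.20e-08), Mrpl38 (-0.56 ± 0.14, adjusted p = 0.00109), Mrpl37 (-0.39 ± 0.11, adjusted p = 0.00296) and Mrpl58 (-0.29 ± 0.10, adjusted p = 0.0123), all of the large subunit. Mrpl24 read 90.1, 83.4 and 91.2 FPKM in naive, 77.3, 77.2 and 80.5 in 12 h and 53.0, 49.0 and 44.5 in CTL libraries of WT cells, without overlap between any groups. Mrpl38 differed in course, as it was at 109 ± 7.2 FPKM (SD, n = 3) at 12 h between 50.8 ± 4.3 in naive cells and 32.5 ± 6.0 in CTLs. Mrpl37 followed the same order of stages, at 48.3 ± 2.4, 78.2 ± 0.58 and 34.7 ± 6.2 FPKM.

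**Figure D3:**
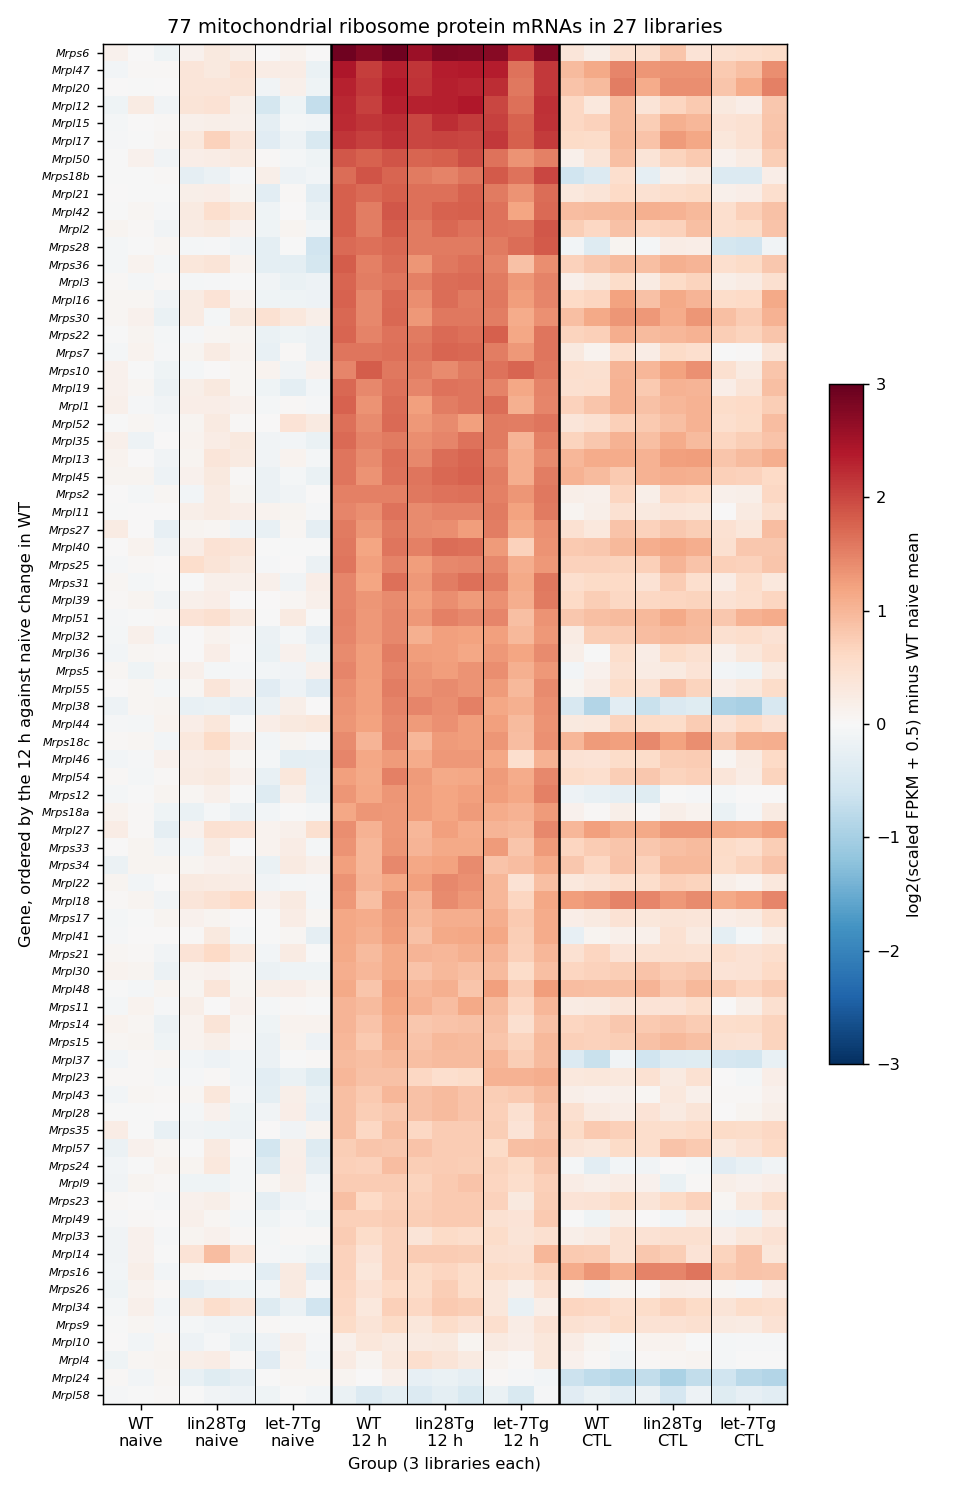
Log2(scaled FPKM + 0.5) of each of the 77 tested members (down, ordered by the 12 h change in WT cells) in each of the 27 libraries (across), as colour for the difference from the member's WT naive mean. The 12 h columns are high for nearly all genes in all 3 genotypes, and genes with another order include Mrps16, Mrpl24 and Mrpl58.

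Members took a like course in both transgenic genotypes. At 12 h, 74 of 77 members rose and 1 fell in lin28Tg cells (median log2 change 1.12; 34.9% of all genes rose) and 75 rose and 0 fell in let-7Tg cells (1.21; 34.4%). From 12 h to CTL, 56 were lower and 1 higher in lin28Tg cells (median -0.57; 33.5% of all genes were lower), and 63 were lower and 2 higher in let-7Tg cells (-0.71; 33.1%). CTLs against naive cells gave 59 higher and 2 lower members in lin28Tg (median 0.47; 33.8% of all genes were higher) and 54 higher and 4 lower in let-7Tg (0.48; 31.4%). The member that was higher in CTLs than at 12 h in lin28Tg cells was again Mrps16, by 0.94 ± 0.12 (limma adjusted p = 4.58e-07), and those in let-7Tg cells were Mrpl34 (0.38 ± 0.12, adjusted p = 0.00874) and Mrpl18 (0.34 ± 0.14, adjusted p = 0.0297). The member that fell at 12 h in lin28Tg cells was Mrpl58 (-0.29 ± 0.10, adjusted p = 0.0102). Mrpl24 and Mrpl37 were lower in CTLs than in naive cells in both transgenic genotypes, and Mrpl38 and Mrpl58 in let-7Tg cells. In let-7Tg cells the change of Mrps16 from 12 h to CTL was 0.24 ± 0.12 (adjusted p = 0.0851). The mean level was highest at 12 h for 66, 66 and 68 of the 77 members in WT, lin28Tg and let-7Tg cells, and all 3 of the 12 h libraries were above all 6 others of the genotype for 61, 56 and 53 of them. Over all genes tested the mean was highest at 12 h for 28.6%, 28.1% and 29.2%, and all 12 h libraries were above the others for 19.8%, 20.6% and 18.9%. Stage was confounded with the table, with the culture and with any sequencing run, which cannot be told apart.

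Across the 27 libraries most members moved together. The scaled log2 level of 65 of 77 members had a Pearson r above 0.8 with the median of the other members, and the median r over 2926 pairs of members was 0.87. These are descriptions over libraries that share 3 stages. Members closest to the median were Mrpl15 (r = 0.99), Mrpl2, Mrpl42, Mrpl39 and Mrpl17. Those least like it were Mrpl58 (r = -0.58), Mrpl24 (0.06) and Mrps16 (0.43).

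Genes that serve the mitochondrial ribosome rose in part. The 5 ribosomal subunits that carry no Mrp symbol all rose at 12 h in WT cells (median log2 change 1.14), among them Chchd1 (1.69 ± 0.11) and Ptcd3 (1.51 ± 0.13), both of the small subunit, Gadd45gip1 (1.14 ± 0.15) and Aurkaip1 (0.81 ± 0.08). Of 26 assembly factors 17 rose and 3 fell (median 0.43; 35.7% of all genes rose in this comparison), with C1qbp at 2.67 ± 0.17 and the RNA helicase Ddx28 at 1.42 ± 0.11. Of 15 translation factors 9 rose and 1 fell (median 0.42), among them the elongation factors Tufm (1.85 ± 0.12) and Tsfm (1.85 ± 0.12) and the recycling factor Mrrf (1.67 ± 0.11). Of 19 mitochondrial tRNA synthetases 12 rose and 1 fell (median 0.40). Kars (2.24 ± 0.11) and Gars (1.92 ± 0.13), which also serve the cytosol, were among those that rose, and Ears2, the glutamyl enzyme, fell by 1.4 on the log2 scale.

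The messages that the ribosome translates went in both directions. Of the 12 tested mitochondrially encoded mRNAs 3 rose and 2 fell at 12 h in WT cells, with a median log2 change of -0.02. mt-Nd3 rose by 1.01 ± 0.18 and mt-Nd1 by 0.73 ± 0.11, while mt-Cytb fell by 0.45 on that scale. The mitochondrial ribosomal RNAs mt-Rnr1 and mt-Rnr2 were not analysed here. Among 13 tested genes of mitochondrial transcription and its regulators 9 rose and 1 fell (median 0.66). Myc, a growth regulator that activates ribosome genes, rose by 3.31 ± 0.19 (adjusted p = 6.90e-13), and Gabpa, the GABP subunit with the ETS DNA-binding domain, rose by 0.72 ± 0.08. Of its partner subunits Gabpb1 rose by 1.00 ± 0.10 and Gabpb2 was the regulator that fell (-0.60 ± 0.09, adjusted p = 3.32e-06). Nrf1 was not called (-0.06 ± 0.08, limma adjusted p = 0.503). Set beside these, 55 of 79 cytosolic ribosomal protein genes rose and 1 fell (median 0.39), and 69 of 82 nuclear genes for respiratory chain subunits rose and 4 fell (median 0.97); these differences between gene groups were not tested.

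The second question was whether raising or removing let-7 changed these genes at a given stage. In naive cells lin28Tg had 12 members higher and 1 lower than WT, which is 13 of 77 (16.9%) against 34.9% of all genes tested, with a median log2 difference of 0.10. Against let-7Tg, lin28Tg naive cells had 27 higher and 1 lower (36.4%, against 44.2% of all genes; median 0.19). Between let-7Tg and WT none of the 77 was called by limma (0.934% of all genes were; median -0.06), 11 had an unadjusted p under 0.05, and the smallest adjusted p was 0.0689, for Mrpl23 (log2 difference -0.29 ± 0.06); limma-voom on recovered reads also called 0. Counting both directions, the share of members called was below that of all genes in both lin28Tg comparisons. All but 1 of the called members were higher in each, however. The median over all genes was -0.04 against WT and -0.03 against let-7Tg. Of tested coding genes, 30.7% with the let-7 seed match and 24.2% without it were higher than in let-7Tg, against 27 of 77 members. Both comparisons share the lin28Tg libraries. The marker sums given above moved with genotype too. Myeloid, erythroid, proliferation, CD4 T cell, B cell and NK cell sums were higher in each lin28Tg naive library than in any other naive library. Stromal and T cell sums were lower in each of them. The part of these sums in the differences between genotypes was not tested. Without the second lin28Tg library, 11 members were called against WT and 20 against let-7Tg. The lowest counts were 8 against WT, without WT replicate 3, and 18 against let-7Tg, without let-7Tg replicate 3.

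Members called against WT in naive lin28Tg cells were small changes. Mrpl18 read 52.6, 57.0 and 64.1 FPKM in lin28Tg, 41.4, 42.4 and 37.1 in WT and 46.1, 49.4 and 40.3 in let-7Tg naive libraries. All lin28Tg values were above all others, and the log2 difference from WT was 0.46 ± 0.10 (limma adjusted p = 0.00626). Mrpl20 (0.35 ± 0.08, adjusted p = 0.00758) and Mrpl42, a mitochondria-specific protein (0.35 ± 0.08, adjusted p = 0.00954), were separated from WT in the same way. Mrpl24 went the other way, with 76.8, 69.3 and 77.2 FPKM in lin28Tg, 90.1, 83.4 and 91.2 in WT and 91.2, 93.7 and 95.8 in let-7Tg naive libraries. Each lin28Tg library was below each of the other 6, and the log2 difference was -0.30 ± 0.06 from WT (adjusted p = 0.00600) and -0.34 ± 0.06 from let-7Tg (adjusted p = 0.00255).

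Against let-7Tg, the smallest adjusted p values in naive cells belonged to Mrpl34, Mrpl17 and Mrps36. Mrpl34 (bL34m) read 47.0, 55.3 and 50.8 FPKM in lin28Tg, 36.3, 41.5 and 35.3 in WT and 30.2, 33.9 and 26.4 in let-7Tg libraries. The 3 genotypes did not overlap, and the log2 difference of lin28Tg from let-7Tg was 0.75 ± 0.11 (limma adjusted p = 0.000667). Mrpl17, whose site and promoter are shown above, read 21.9, 28.8 and 23.3 FPKM in lin28Tg, 16.9, 16.9 and 17.8 in WT and 14.1, 15.6 and 13 in let-7Tg libraries. Its genotypes were again separate, in the order lin28Tg, WT, let-7Tg, with a log2 difference of 0.76 ± 0.11 (adjusted p = 0.000795). For Mrps36 the difference was 0.63 ± 0.10 (adjusted p = 0.00102), between 41.3 ± 3.7 and 26.4 ± 2.4 FPKM (SD, n = 3). By class, 15 of 30 large-subunit proteins with a bacterial counterpart were higher, 6 of 20 mitochondria-specific large-subunit proteins, 3 of 15 small-subunit proteins with a bacterial counterpart and 2 of 11 mitochondria-specific small-subunit proteins. Among tested coding genes, 30.7% of those with the let-7 seed match and 24.2% of those without it were higher in naive lin28Tg than in let-7Tg cells. The differences between classes were not tested.

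All 5 members with a let-7 seed match were among those higher in naive lin28Tg than in naive let-7Tg cells, by 0.28 (Mrpl15), 0.76 (Mrpl17), 0.34 (Mrpl21), 0.28 (Mrpl51) and 0.44 (Mrps25) on the log2 scale. None of the 5 was called between those genotypes at 12 h or in CTLs, nor between let-7Tg and WT at any stage, although the fit with the replicate block called Mrpl15, Mrpl17 and Mrpl21 higher in lin28Tg than in let-7Tg CTLs (log2 differences 0.37, 0.56 and 0.24). Between naive lin28Tg and let-7Tg cells 44.2% of all tested genes were called in either direction, and of the tested coding genes with the site 30.7% were higher, against 24.2% of those without it. The 5 were picked out after the values of the genotype comparisons were known, and no test was made of the count. Most exon bases of Mrps25 lie within Nr2c2 on the other strand, as given above.

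**Figure D4:**
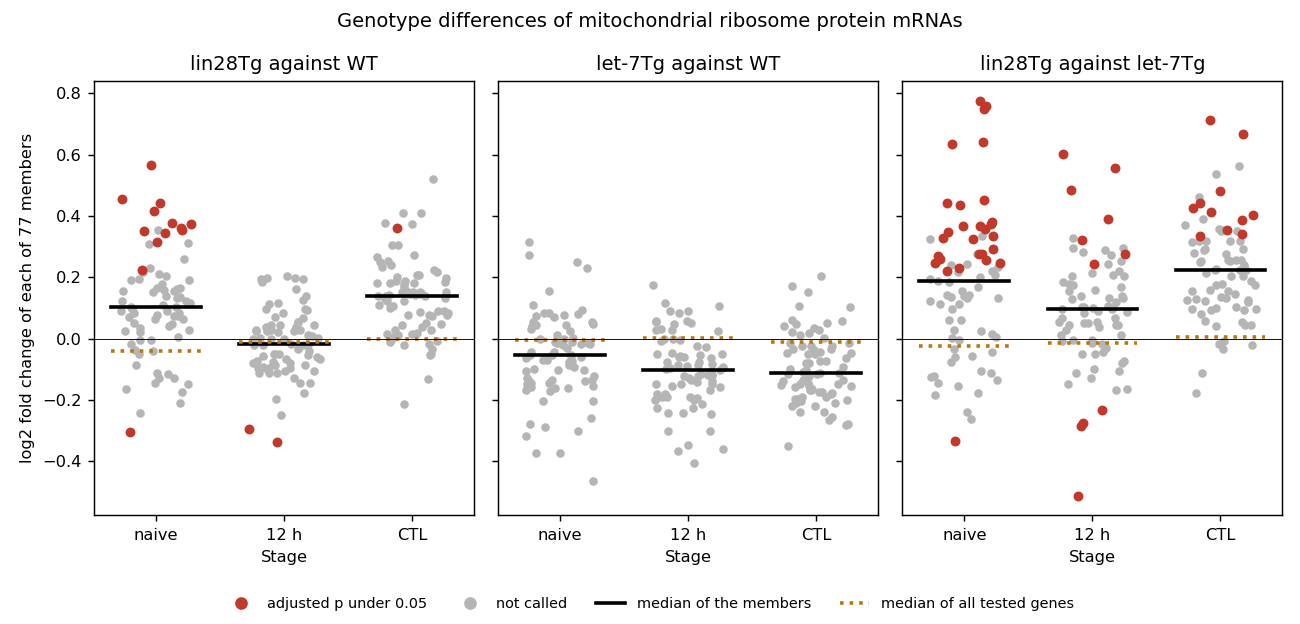
Log2 difference of each tested member between genotypes at each stage, for lin28Tg against WT, let-7Tg against WT and lin28Tg against let-7Tg, with called members in red, the members' median as a black line and the median of all tested genes as a dotted line. Called members are most numerous for lin28Tg against let-7Tg in naive cells (28 of 77), and there are none for let-7Tg against WT.

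Among genes that serve the ribosome, 11 of 26 assembly factors were called between naive lin28Tg and WT cells, all of them lower in lin28Tg. Of all genes tested 34.9% were called, both directions together, and the share that was lower alone is not given here. The 11 included Eral1 (log2 difference -0.35 ± 0.07), which binds the small-subunit RNA, Mettl17 (-0.42 ± 0.08) and Mrm1 (-0.52 ± 0.11). The median difference of the members was 0.10. Of 19 synthetases 1 was higher and 4 lower. Of 15 translation factors none was called, and of 13 regulators 4 were lower. Myc did not differ between naive lin28Tg and WT cells beyond the threshold (-0.05 ± 0.08, limma adjusted p = 0.668), and it was lower in naive let-7Tg than in WT cells (-0.62 ± 0.08, adjusted p = 0.0139).

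At 12 h few members were called between genotypes. Lin28Tg cells had 0 members higher and 2 lower than WT (8.48% of all genes were called; median -0.02). No member was called between let-7Tg and WT by limma (3.24% of all genes; median -0.10), although 9 had an unadjusted p under 0.05, and limma-voom also called 0. Between lin28Tg and let-7Tg 7 were higher and 4 lower (14.3%, against 30.8% of all genes; median 0.09). Mrpl23 (uL23m), which sits at the mouth of the exit tunnel, was called in both lin28Tg comparisons. It read 87.1, 78.5 and 81.0 FPKM in lin28Tg, 107, 103 and 98.3 in WT and 114, 126 and 115 in let-7Tg libraries at 12 h. The 3 genotypes did not overlap and stood in the order let-7Tg, WT, lin28Tg. The log2 difference of lin28Tg was -0.34 ± 0.06 from WT (limma adjusted p = 0.00797) and -0.51 ± 0.06 from let-7Tg (adjusted p = 0.000320).

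Mrpl24 was the other member lower in lin28Tg than in WT cells at 12 h (-0.29 ± 0.06, adjusted p = 0.0127), and it was lower than in let-7Tg cells as well (-0.23 ± 0.06, adjusted p = 0.0132). Its 12 h libraries read 65.1, 65.6 and 63.0 FPKM in lin28Tg, 77.3, 77.2 and 80.5 in WT and 76.6, 82.7 and 70.6 in let-7Tg cells, so that lin28Tg was below all others. Against let-7Tg, Mrpl52 (-0.27 ± 0.08) and Mrps18b (-0.29 ± 0.09) were also lower. Mrpl34 was higher (0.60 ± 0.13, adjusted p = 0.00851), with 51.3, 55.7 and 54.8 FPKM in lin28Tg, 48.6, 40.3 and 50.9 in WT and 40.6, 30.9 and 35.8 in let-7Tg libraries. The lin28Tg libraries were highest and only WT came near to them. Mrpl22 (0.56 ± 0.13, adjusted p = 0.0131) and Mrpl50 (0.32 ± 0.08, adjusted p = 0.0160) were higher too. Myc was lower in let-7Tg than in WT cells at this stage (-0.51 ± 0.10, adjusted p = 0.0388). Proliferation markers summed to 1180 to 1458 FPKM in lin28Tg, 780 to 1084 in WT and 611 to 952 in let-7Tg libraries and erythroid markers to 83.3 to 693, 26.1 to 103 and 0.77 to 4.34, and their part was not tested. The counts rested on single libraries, since lin28Tg against let-7Tg gave 6, 5 and 3 called members without lin28Tg replicates 1, 2 and 3 and 7 without WT replicate 1, and lin28Tg against WT gave 0 without lin28Tg replicate 2 and 1 without WT replicate 3 or lin28Tg replicate 3.

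In CTLs 1 member was higher in lin28Tg than in WT cells (4.34% of all genes were called; median 0.14), none was called between let-7Tg and WT by limma or limma-voom (0.929% of all genes; median -0.11; 7 with an unadjusted p under 0.05), and 11 were higher and 0 lower in lin28Tg than in let-7Tg cells (14.3%, against 21.6% of all genes; median 0.22). These shares of all genes count both directions, while every called member was higher in lin28Tg. The median over all genes was 0.004 for lin28Tg against let-7Tg and -0.001 for lin28Tg against WT. Same-numbered CTL libraries deviated together. With the replicate number as a block 31 members, among them all 11, were higher in lin28Tg than in let-7Tg CTLs and 0 lower. Of all genes 36.3% were then called, again in either direction. With the same block lin28Tg exceeded WT for 3 members, Mrpl52, Mrps10 and Mrps16 (13.5% of all genes), and 0 were called between let-7Tg and WT. Without the block, lin28Tg against let-7Tg gave 5 and 3 called members without lin28Tg replicates 2 and 3, and 3, 4 and 17 without let-7Tg replicates 1, 2 and 3. NK cell markers summed to 60.8 to 158 FPKM in lin28Tg, 8.35 to 40.7 in WT and 2.15 to 4.70 in let-7Tg CTLs. Of these 4 genes, 2 were at 0 in all lin28Tg and all WT CTL libraries. Klrb1c, 1 of the 4, was higher in lin28Tg by 2.44 ± 0.53 from WT and 4.96 ± 0.53 from let-7Tg on the log2 scale. The sum thus rested on few genes and is not a measure of NK cell content. Proliferation markers summed to 2011 to 2257, 2140 to 2427 and 2502 to 2736 FPKM in lin28Tg, WT and let-7Tg CTLs. The part of these sums was not tested.

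The member called in both comparisons was Mrps16. It read 134, 127 and 142 FPKM in lin28Tg, 105, 122 and 99.6 in WT and 86.4, 90.7 and 87.5 in let-7Tg CTLs. The genotypes did not overlap, in the order lin28Tg, WT, let-7Tg. The log2 difference of lin28Tg was 0.36 ± 0.08 from WT (limma adjusted p = 0.0488, and 0.0250 with the block) and 0.71 ± 0.08 from let-7Tg (adjusted p = 0.000797). The first of these was lost on leaving out any of 8 of the 9 CTL libraries. Next against let-7Tg came Mrps15 (uS15m), with 83.1, 85.2 and 81.8 FPKM in lin28Tg and 65.7, 64.8 and 73.3 in let-7Tg libraries (0.40 ± 0.08, adjusted p = 0.00773). Mrpl45, which ties the ribosome to the inner membrane, read 33.6, 33.4 and 33.3 FPKM in lin28Tg, 34.4, 32.5 and 27.7 in WT and 28.3, 27.7 and 25.2 in let-7Tg CTLs (0.41 ± 0.09, adjusted p = 0.0109). Lin28Tg and WT overlapped for Mrpl45, while lin28Tg lay above let-7Tg in both genes. Mrpl45 lies 2.4 Mb from Col1a1 on chromosome 11, the locus of the let-7g transgene. The nearer members Mrpl27 (0.3 Mb) and Mrpl10 (2.1 Mb) were not called, with log2 differences of 0.10 ± 0.09 (limma adjusted p = 0.488) and 0.13 ± 0.09 (adjusted p = 0.338). Whether the distance to the transgene bears on the level of Mrpl45 was not tested. Of the other genes of the pathway, Tfb1m, which methylates the small-subunit RNA, was higher in lin28Tg than in let-7Tg CTLs by 1.10 ± 0.13 (adjusted p = 0.000761) and Gars by 1.14 ± 0.14 (adjusted p = 0.000882).

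**Figure D5:**
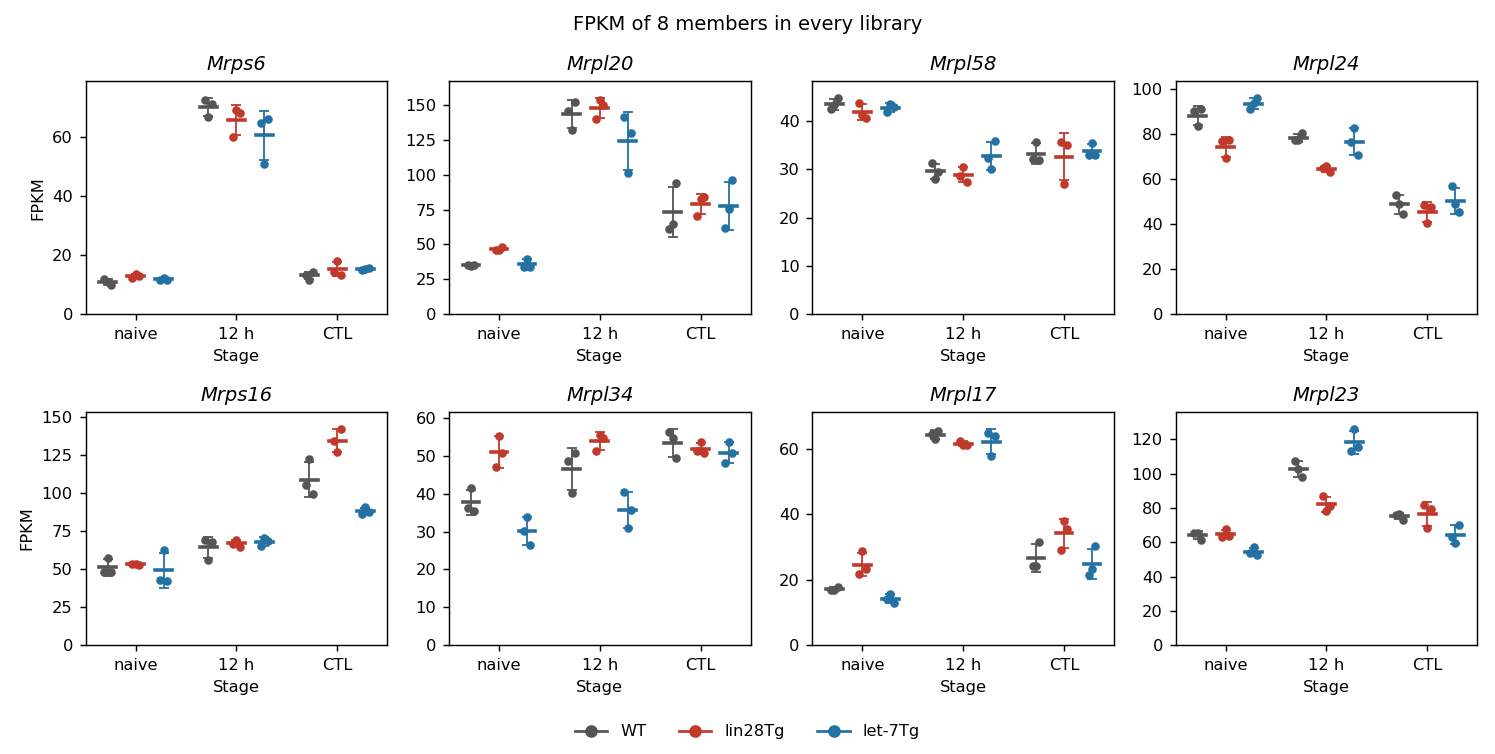
FPKM (y axis from 0) in each of the 27 libraries (points, with the mean and SD of 3) for 8 members that differed in course or between genotypes, by stage and genotype. Mrps6 peaks at 12 h near 70 FPKM in WT cells, Mrps16 is highest in CTLs with lin28Tg above WT above let-7Tg, and Mrpl23 at 12 h is ordered the opposite way.

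Whether a genotype difference itself changed between stages was tested in a fit of all 27 libraries. For lin28Tg against WT 2 members were called between 12 h and naive cells (8.04% of all genes), 3 between CTLs and 12 h (6.39%) and 1 between CTLs and naive cells (14.8%). Leaving out each library in turn gave 0 to 4, 1 to 7 and 0 to 4, limma-voom gave 0 for the first, and the replicate block gave 4, 6 and 3. For let-7Tg against WT the counts by limma were 0 (0.0761% of all genes), 1 (1.49%) and 0 (0.346%), with 5 and 3 members at an unadjusted p under 0.05 in the comparisons without a call, where limma-voom called 0 as well. For lin28Tg against let-7Tg they were 3 (13.3%), 8 (20.2%) and 6 (25.4%), with ranges of 2 to 5, 4 to 12 and 2 to 8 on leaving out each library in turn, and the replicate block gave 7 for the first. Mrpl23 had the smallest adjusted p of them. Its naive libraries read 63.3, 67.5 and 63.8 FPKM in lin28Tg and 53.7, 57.2 and 52.4 in let-7Tg cells, its 12 h values are given above, and its CTL libraries read 81.6, 68.4 and 79.5 against 63.1, 59.6 and 70.4. Lin28Tg was thus above let-7Tg in naive cells, below it at 12 h and mostly above it in CTLs. The difference in log2 effect was -0.77 ± 0.10 from naive to 12 h (limma adjusted p = 4.11e-05) and 0.84 ± 0.10 from 12 h to CTL (adjusted p = 2.24e-06). The annotated pseudogene Mrpl23-ps1 had at most 12 reads in any library (1.07 FPKM).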

How the data were processed

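RNA of 27 libraries (9 groups of 3 replicates, grouped by the genotype, time and treatment labels) was sequenced by the authors, who per the labels and methods aligned reads to GRCm38/mm10 (submitters' processing notes: Bowtie2 2.0.6, TopHat2 2.0.9) and counted genes with HTSeq 0.6.1; annotation release and strand setting are not given in the sources used here. The deposited unit is FPKM per gene and library, in 3 tables, 1 per stage, and the authors' own fold changes and p-values, also in these tables, were not used. Whole reads could be recovered from 100% of the FPKM values above 0 (within 0.002 reads), giving 13862692 to 23590929 reads per library, which limits the precision of low genes.

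FPKM values were scaled by the trimmed mean of log ratios and tested as log2(FPKM + 0.5) with limma 3.58.1 in R 4.3.3 (intensity trend, two-sided, Benjamini-Hochberg over all tested genes, called at 0.05), since FPKM is not a count; log2 differences understate changes of low genes. Genes needed 10 reads in at least 3 libraries and 15 in all. Genotypes were compared in a fit of the 9 libraries of a stage, stages and differences between stages in a fit of all 27. The fit was tested on simulated data with 200 changed genes. The p-values measure the spread between these samples, which the study calls biological replicates. Alternatives were other pseudocounts, scalings and filters, limma-voom on the recovered reads (4570, 51 and 5883 genes called in naive cells for lin28Tg against WT, let-7Tg against WT and lin28Tg against let-7Tg), fits of the 6 compared libraries, a replicate block and leaving out each library.

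Whether replicate numbers pair samples was checked by correlating deviations from group means. Same-numbered CTL libraries correlated at 0.25 to 0.71 in all 9 pairs (others -0.53 to 0.14). This is a hint from the data that the number may pair CTL samples, since the labels name no shared batch. CTL counts are therefore given both without and with the block. Naive (-0.26 to 0.47) and 12 h libraries (-0.26 to 0.55) gave 3 of 9 pairs above 0.1, all 3 at 12 h being WT with let-7Tg.

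Members, lists and tests were chosen with earlier results of these data known. Named are the 3 called members of smallest adjusted p per direction of each genotype comparison, the 3 largest changes per direction of each WT stage comparison, members called against the majority, the 5 highest and lowest levels, the 3 smallest adjusted p of each interaction, members that passed no filter, and those most and least like the members' median; each other list gives its 3 smallest adjusted p. Mrpl4, Mrpl10, Mrpl24 at 12 h, the let-7 seed members and the stage values of Mrpl37 were named after their values were seen.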

Additional observations from a re-analysis of the deposited data

Results flagged for a closer look

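For 24 differences a test in the fit of all 27 libraries (limma, Benjamini-Hochberg adjusted over 14453 genes) found that a genotype effect on a member differed between stages. Values are differences of log2 effects, later stage minus earlier stage.

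For lin28Tg against WT from naive cells to 12 h they were -0.35 for Mrpl23 (adjusted p = 0.0333) and -0.49 for Mrps21 (0.0257). From 12 h to CTL they were 0.68 for Mrpl52 (0.0137), 0.59 for Mrpl32 (0.0225) and 0.44 for Mrpl23 (0.00921), and from naive cells to CTL the value for Mrps21 was -0.48 (0.0156). For let-7Tg against WT the only one was Mrpl23 from 12 h to CTL, at -0.41 (0.0408).

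For lin28Tg against let-7Tg from naive cells to 12 h, the values were -0.77 for Mrpl17 (0.0122), 0.53 for Mrps26 (0.0171) and -0.77 for Mrpl23 (4.11e-05). From 12 h to CTL they were 0.51 for Mrpl52 (0.0316), 0.46 for Mrpl32 (0.0363), -0.33 for Mrpl9 (0.0382), 0.81 for Mrps10 (0.00511), -0.49 for Mrpl34 (0.0460), 0.84 for Mrpl23 (2.24e-06), 0.66 for Mrps28 (0.0142) and 0.70 for Mrps16 (0.00474). From naive cells to CTL they were 0.53 for Mrpl38 (0.0472), -0.63 for Mrpl14 (0.0455), 0.70 for Mrps10 (0.0121), -0.64 for Mrpl34 (0.00754), 0.55 for Mrps16 (0.0206) and -0.41 for Mrps21 (0.0242).

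Mrps21 (bS21m) read 105, 121 and 101 FPKM in lin28Tg, 82.2, 80.2 and 72.0 in WT and 76.8, 93.7 and 81.1 in let-7Tg naive libraries, and 99.0, 96.6 and 97.0 against 101, 115 and 96.0 and 108, 104 and 106 in CTLs. It was highest in lin28Tg in naive cells, and in CTLs all 3 genotypes lay close together. Mrps10 (uS10m) read 31.8, 35.6 and 40.4 FPKM in lin28Tg and 23.6, 20.2 and 29.2 in let-7Tg CTLs, and 44.5, 39.8 and 44.3 against 46.2, 56.3 and 43.9 at 12 h, so that the groups overlapped at 12 h and not in CTLs.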

How the results depend on the processing

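The rise of members at 12 h, their fall from 12 h to CTL and their higher level in CTLs than in naive cells kept their direction and stayed within 1.5 times the counts given, in every alternative, with leave-one-out ranges of 74 to 75, 61 to 66 and 49 to 60 members in WT, 72 to 74, 54 to 58 and 52 to 60 in lin28Tg and 72 to 75, 58 to 66 and 48 to 57 in let-7Tg cells. Removing the scaling moved the all-gene median of 12 h against naive by -0.16 in WT cells, and members stood 1.35 above that median with scaling and 1.26 without.

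Genotype counts depended on the settings; the cause was not tested. Lin28Tg against let-7Tg at 12 h (11) gave 5 with no filter and 7 in a fit of 6 libraries. In CTLs lin28Tg against WT (1) gave 0 with no scaling, no filter, limma-voom or 6 libraries, and lin28Tg against let-7Tg (11) gave 6 with no scaling and 7 with no filter. Of the differences between stages, lin28Tg against WT from naive to 12 h (2) gave 4 with no scaling, 1 with no filter and 0 with limma-voom, and from naive to CTL (1) gave 4 with no scaling. Let-7Tg against WT from 12 h to CTL (1) gave 0 with no filter or limma-voom, and lin28Tg against let-7Tg from 12 h to CTL (8) gave 5 with no filter. From naive to CTL lin28Tg against let-7Tg had 3 of 6 higher, and 2 of 8 with no scaling. Without scaling Mrpl24 (-0.17) and Mrpl4 (-0.036) turned from above to below 0 at 12 h in WT cells, as did Mrpl24 (-0.0011) with median-of-ratios scaling; neither was called in any of these.

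With the replicate block lin28Tg against WT gave 3 and lin28Tg against let-7Tg 31 in CTLs. Same-numbered libraries deviated together in all pairs for CTLs only. For interactions the block gave 4, 6 and 3 (lin28Tg against WT, naive to 12 h, 12 h to CTL, naive to CTL) and 7 (lin28Tg against let-7Tg, naive to 12 h). Mrpl58 at 12 h lost its call under the block; the other counts stayed within 1.5 times.

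Leaving out each library in turn gave 8 to 16 (lin28Tg against WT) and 18 to 34 (lin28Tg against let-7Tg) members in naive cells, the lowest without WT replicate 3 and let-7Tg replicate 3. At 12 h it gave 0 to 3 (lin28Tg against WT, 0 without lin28Tg replicate 2, 1 without WT or lin28Tg replicate 3), 0 to 1 (let-7Tg against WT, 1 without let-7Tg replicate 1) and 3 to 14, with 7 without WT replicate 1 and 6, 5 and 3 without lin28Tg replicates 1, 2 and 3. In CTLs it gave 0 to 1, and 3 to 17 for lin28Tg against let-7Tg, with 5 and 3 without lin28Tg replicates 2 and 3 and 3, 4 and 17 without let-7Tg replicates 1, 2 and 3. For differences between stages the ranges were 0 to 4, 1 to 7 and 0 to 4 (lin28Tg against WT), 0 to 1 (let-7Tg against WT, 12 h to CTL) and 2 to 5, 4 to 12 and 2 to 8 (lin28Tg against let-7Tg), moved by libraries of all 9 groups. Of 2568 alternative values of named members, 2232 kept direction and side of the threshold, 327 lost the call, 6 gained it and 3 changed sign.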
